A study of Rattus norvegicus with 6 samples.

Results

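The miRNAs described here come from 10 precursors of the Dlk1-Dio3 region that lie upstream of the large cluster from miR-379 to miR-410, namely miR-673, miR-493, miR-337, miR-540, miR-665, miR-431, miR-433, miR-127, miR-434, and miR-136. Every row of the count table with one of these rat names was taken, which gave 18 of the 910 names listed. The rows were chosen by name, and the region itself was selected on earlier results of these same libraries, in which its miRNAs had higher normalised counts in the Na2SeO3 group. The differences between groups are therefore given as a description, with no p-value, and support nothing by themselves.

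Small RNA was sequenced from the capsular membrane of lenses of Sprague Dawley rat pups, 8 days old when the model was set up. The control group (3 libraries) received saline, and the Na2SeO3 group (3 libraries) received sodium selenite at 20 μmol/kg, each under the skin of the neck on days 3, 5, and 7, with lenses taken on day 15. Sodium selenite given to young rats clouds the lens and is a standard cataract model, but an acute one. No genetic change separates the groups. Libraries are numbered 1 to 3 within each group, and values by library are always given in that order. The study's methods give 3 rats for each group, so the errors are those between animals within this one experiment. The libraries held 1806596 to 2829903 counted miRNA reads in the control group and 663096 to 968151 in the Na2SeO3 group. The groups thus did not overlap in counted reads, whereas the untrimmed reads that the study lists did overlap. Every Na2SeO3 library had a smaller part of its untrimmed reads counted as miRNA than any control library. CPM below means counts scaled to the library size, after TMM scaling has centred the bulk of the miRNAs on no difference. The lens miRNAs fixed as markers (miR-184, miR-204, miR-211, and the miR-183, miR-96, and miR-182 cluster) took 24.4% to 27.1% of the counts in every library, although 1 of them, rno-miR-184, was called lower in the Na2SeO3 group, at 73872.9 to 85715.9 against 34843.6 to 40876.5 CPM. A level of 3 counts stood for 1.06 to 1.66 CPM (relative to the unscaled total) in the control group and 3.10 to 4.52 CPM in the Na2SeO3 group. These limits and all intervals cover counting error only, since PCR copies of a molecule could not be told from new ones.

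The Dlk1-Dio3 region is imprinted, so each gene in it is read from the chromosome of a single parent. Long non-coding RNAs such as Meg3, and the miRNAs carried by such transcripts, come from the maternal chromosome, whereas the protein-coding genes Dlk1, Rtl1, and Dio3 come from the paternal one. Rtl1 is a gene derived from a retrotransposon that placenta and muscle need for their development. The miRNAs of the maternal transcript opposite to Rtl1 are perfectly complementary to the Rtl1 mRNA and can direct its cleavage. As a class, the miRNAs of the region are best known from embryo, placenta, muscle, and brain.

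In the RefSeq annotation of the GRCr8 assembly, all 10 precursors lay on the plus strand of chromosome 6, in the order Mir673, Mir493, Mir337, Mir540, Mir665, Mir431, Mir433, Mir127, Mir434, and Mir136, downstream of Meg3 and Mir770. The last 5, from Mir431 to Mir136, lay inside the interval of Rtl1, and the first 5 lay before it. No coordinates are given, because the build behind the counts is not named. A further pair of miRNA genes lay on the minus strand in the same stretch, Mir3544 overlapping Mir337 and Mir3543 overlapping Mir434. Neither rno-miR-3544 nor rno-miR-3543 had a single count in any of the 6 libraries, which allows up to 3 counts in each.

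Mature sequences of 16 of the 18 rows were found in RefSeq (GRCr8). The 10 below belong to miRNAs abundant enough to be compared between groups, and they are shown because the seed, the part that pairs with a target mRNA, decides which mRNAs each can bind. The seed, bases 2 to 8, is in capitals, and each line reads 5′ to 3′.
rno-miR-493-5p: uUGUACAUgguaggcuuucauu
rno-miR-493-3p: uGAAGGUCuacugugugccag
rno-miR-337-5p: cGGCGUCAugcaggaguugau
rno-miR-540-3p: aGGUCAGAggucgauccugggc
rno-miR-431: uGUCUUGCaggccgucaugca
rno-miR-433-3p: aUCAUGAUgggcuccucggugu
rno-miR-127-3p: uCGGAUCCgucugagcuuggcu
rno-miR-434-5p: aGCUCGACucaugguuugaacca
rno-miR-434-3p: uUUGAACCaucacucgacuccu
rno-miR-136-3p: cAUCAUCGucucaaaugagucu

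The remaining compared names, rno-miR-127-5p and rno-miR-136-5p, are given by name. No seed was shared, either among the 16 sequences or with any other mature rat miRNA of the same table, so the 16 rows stand for 16 seed families. The longest run of bases shared by a pair of the 10 printed sequences was 9, found between miR-337-5p and miR-431 (CGUCAUGCA) and between the arms of miR-434 (UUUGAACCA). Runs of 9 or more occurred in 0.325% of the 43660 pairs of compared rat miRNAs with a sequence.

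The members differed widely in abundance, with rno-miR-127-3p far above the rest. Its raw counts were 13413, 6669, and 6798 in the control libraries and 7186, 9169, and 7387 in the Na2SeO3 libraries. It averaged 4160.6 ± 627 CPM (SD, n = 3) in the control group, rank 31 among all names, and 8971 ± 1297 CPM (SD, n = 3) in the Na2SeO3 group, rank 18. From this level the order fell steeply. Next in both groups were the arms of miR-434, with rno-miR-434-5p at 738 ± 164 CPM and rno-miR-434-3p at 420 ± 57.1 CPM (SD, n = 3 each) in the control group. The lowest control library of miR-434-5p, at 598 CPM, lay above the highest of miR-434-3p, at 459 CPM. From rno-miR-136-3p (108 ± 23.6 CPM) down to rno-miR-493-5p (23.8 ± 5.20 CPM), 8 members followed in the control group. Within these 8, each neighbouring pair in the order overlapped in range except miR-127-5p and miR-337-5p. The last compared member, rno-miR-540-3p, had 4.26 ± 1.56 CPM (SD, n = 3) in the control group, a level reached by 4 to 13 reads. In the Na2SeO3 group the first 3 places were the same, and the next 8, from miR-127-5p to miR-431, each overlapped with their neighbours. miR-493-5p stood at place 11 in the control and at place 9 in the Na2SeO3 group, and miR-136-3p at places 4 and 7. Levels of different miRNAs in a small RNA library also depend on how well each end is ligated, so this order is that of the reads.

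The other 6 rows held between 4 and 42 reads over all 6 libraries and could not be compared. They were rno-miR-673-5p (8 reads), rno-miR-673-3p (42), rno-miR-337-3p (15), rno-miR-540-5p (10), rno-miR-665 (4), and rno-miR-433-5p (12). The most abundant of them, rno-miR-673-3p, had 8, 9, and 8 reads in the control libraries and 4, 5, and 8 in the Na2SeO3 libraries, and its CPM values overlapped. For rno-miR-665 the reads were confined to control libraries 2 and 3 (3 and 1), and the Na2SeO3 libraries had 0, which allows up to 3 counts in each. Precursors miR-337 and miR-433 were seen almost wholly through a single arm. rno-miR-540-3p passed the filter on low counts through the Na2SeO3 libraries, where its CPM was highest, so the count of compared members is no evidence of a direction.

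**Figure D1:**
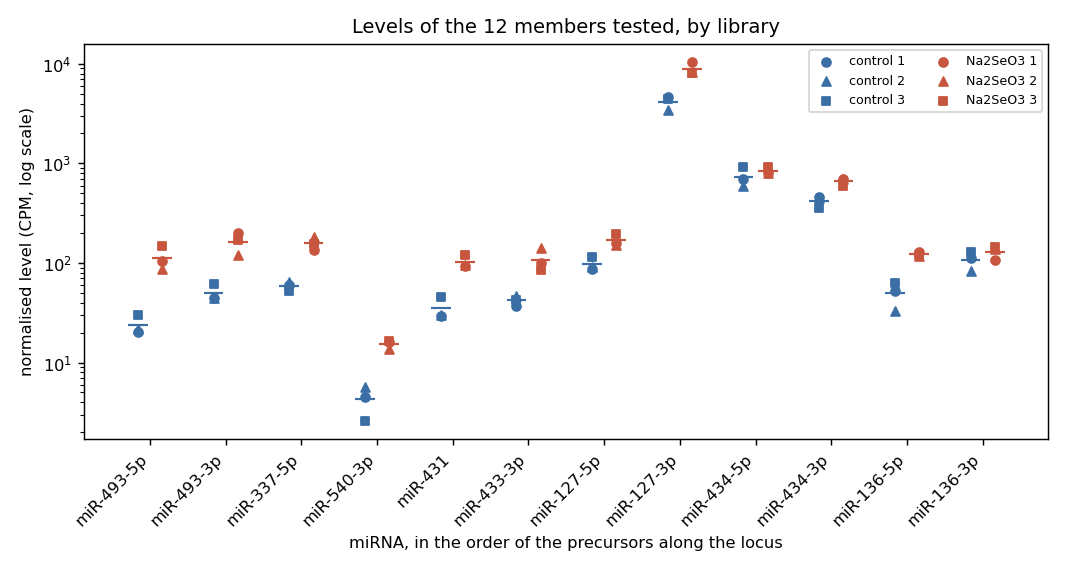
Normalised level (CPM, log axis) of the 12 compared members in each of the 6 libraries, in the order of the precursors along the locus, with points for libraries (control in blue, Na2SeO3 in red) and short lines for group means. In 10 of the 12 the Na2SeO3 libraries all lie above the control libraries, and miR-434-5p and miR-136-3p overlap.

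As a group the members took a larger share of the counted miRNA reads in the Na2SeO3 libraries. The share was 0.638%, 0.459%, and 0.532% in the control libraries and 1.35%, 1.24%, and 1.12% in the Na2SeO3 libraries. The group means were 0.543% ± 0.0904 and 1.24% ± 0.114 (SD, n = 3 each), a ratio of 2.28, and the groups did not overlap. Most of these reads were miR-127-3p, which made up 71.7% ± 2.25 of the member reads in the control group and 77.3% ± 2.74 in the Na2SeO3 group (SD, n = 3 each). Without it the remaining 17 rows took 0.153% ± 0.0139 and 0.279% ± 0.0131 (SD, n = 3 each), still without overlap.

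The numbers of reads behind these shares were not separated by group. The members summed to 18067, 9519, and 9615 reads in the control libraries and to 8943, 11987, and 9841 in the Na2SeO3 libraries, and these ranges overlapped. In raw counts every Na2SeO3 library lay above every control library for 2 of the 12 compared members, rno-miR-493-5p and rno-miR-493-3p, as it did for 1.76% of all 341 miRNAs compared. In raw counts every control library lay above every Na2SeO3 library for a further 2, rno-miR-434-5p and rno-miR-136-3p, as it did for 68.0% of all. The other 8 overlapped. The untrimmed reads of the libraries, as the study lists them, overlapped between groups as well. A larger amount of the members and a smaller amount of the other miRNAs would each give a larger share. These cannot be told apart in these libraries. In a bulk sample fewer cells of a type and less RNA per cell cannot be told apart either.

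**Figure D2:**
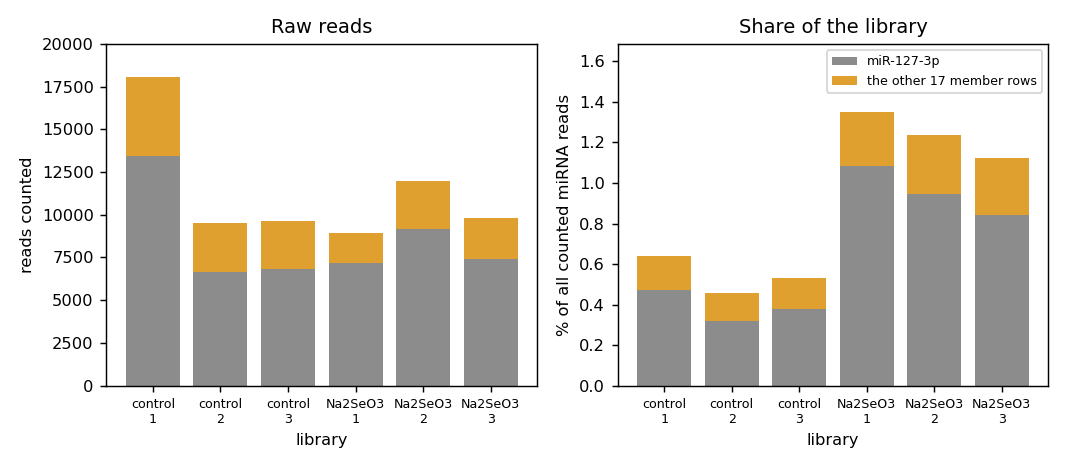
Reads of rno-miR-127-3p (grey) and of the other 17 member rows (yellow) in each library, as raw reads (left) and as a percentage of all counted miRNA reads (right), with bars from 0. Raw reads lie between 8943 and 18067 and overlap between groups, whereas the share lies at 0.459% to 0.638% in the control and 1.12% to 1.35% in the Na2SeO3 libraries.

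Between the groups, 8 of the 12 compared members were called higher in the Na2SeO3 group and 0 lower. A call needed an adjusted p-value under 0.05 in edgeR and a log2 fold change beyond 1 in size, as the study's methods set them. Of all 341 miRNAs compared, 16.4% were called, 11.4% in the higher direction. The adjusted p-value alone was passed in the higher direction by 10 members, against 20.8% of all. In the same 10 members the CPM of every Na2SeO3 library lay above that of every control library, as it did in 25.2% of all. Nothing is read from these counts, because earlier results of this comparison chose the region. The median log2 fold change was 1.34 over the 12 members and 0.08 over all miRNAs compared, and the members ranged from 0.20 to 2.26. The split of all calls depended on scaling, with 39 higher and 17 lower under TMM, 53 and 10 with library size only, and 32 and 22 with upper-quartile scaling. Library size only moved the median of all miRNAs to 0.27 and that of the members to 1.54, and all 12 members kept a positive log2 fold change under every scaling.

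Among precursors ahead of Rtl1, miR-493 gave the largest log2 fold change of all 12 compared members, that of its 5p arm. rno-miR-493-5p, studied elsewhere as a suppressor of metastasis, was counted 58, 42, and 46 times in the control libraries and 72, 96, and 134 times in the Na2SeO3 libraries. The CPM values were 20.0, 21.7, and 29.8 against 105, 87.2, and 147, so the lowest Na2SeO3 library lay above the highest control library. The log2 fold change was 2.26 with a standard error of 0.25. Its partner arm rno-miR-493-3p had 44.6, 44.5, and 61.5 CPM in the control libraries and 199.5, 119.8, and 170.5 CPM in the Na2SeO3 libraries, and the log2 fold change was 1.70 (standard error 0.23). In both arms control library 3 was the highest of its group, but the highest Na2SeO3 library differed, library 3 for the 5p arm and library 1 for the 3p arm.

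rno-miR-337-5p, the major arm of the next precursor, had 60.1, 64.1, and 51.8 CPM in the control libraries and 134, 182, and 156 CPM in the Na2SeO3 libraries. The groups were well apart, and the log2 fold change was 1.42 (standard error 0.19). rno-miR-540-3p had 13, 11, and 4 reads in the control libraries and 11, 15, and 15 in the Na2SeO3 libraries, that is 4.49, 5.69, and 2.59 against 16.0, 13.6, and 16.5 CPM. Its groups did not overlap in CPM but did in reads, and its log2 fold change of 1.79 had the largest standard error of the members, 0.41. All 4 compared members ahead of Rtl1 were called higher, against 11.4% of all miRNAs compared, with a median log2 fold change of 1.75. This count and median include miR-540-3p, which passed the filter through its higher Na2SeO3 level, and nothing is read from them.

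Of the 8 compared members inside the Rtl1 interval, 4 were called higher, against 11.4% of all miRNAs compared, and the median log2 fold change was 0.95. rno-miR-431, known from muscle stem cells, had 29.02, 30, and 45.95 CPM in the control libraries and 93.2, 95.3, and 119.9 CPM in the Na2SeO3 libraries, and the log2 fold change was 1.57 (standard error 0.23). For rno-miR-433-3p the values were 37.3, 46.6, and 42.1 CPM against 100.5, 139.8, and 84.7 CPM, and the log2 fold change was 1.38 (standard error 0.22). In both the lowest Na2SeO3 library lay far above the highest control library.

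rno-miR-127-3p, whose loss in mice impairs the placenta, had 4633, 3449, and 4399 CPM in the control libraries and 10464, 8324, and 8125 CPM in the Na2SeO3 libraries. The groups were far apart, yet the log2 fold change of 1.11 (standard error 0.17) lay just above the threshold for a call. It lay below it without control library 2, at 0.99, and without Na2SeO3 library 1, at 0.95. Its minor arm rno-miR-127-5p had 97.7 ± 15.4 CPM in the control and 168 ± 23.1 CPM in the Na2SeO3 group (SD, n = 3 each), without overlap, and a log2 fold change of 0.79 (standard error 0.19) that was short of the threshold.

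The smallest log2 fold changes were those of miR-434 and of the 3p arm of miR-136, the last precursors of the row. rno-miR-434-5p had 697, 598, and 918 CPM in the control libraries and 804, 807, and 928 CPM in the Na2SeO3 libraries, so the groups overlapped, and its log2 fold change was 0.20 (standard error 0.18). That value depended on the control libraries, at 0.07 without control library 2 and 0.39 without control library 3, and was 0.13 without Na2SeO3 library 3. rno-miR-434-3p had 459, 446, and 355 CPM against 702, 689.9, and 597 CPM, without overlap, and its log2 fold change was 0.66 (standard error 0.16). The arms of miR-136 stood apart from each other. rno-miR-136-5p had 52.9, 32.6, and 62.8 CPM in the control libraries and 129.6, 116, and 119.9 CPM in the Na2SeO3 libraries, and the log2 fold change was 1.30 (standard error 0.23). rno-miR-136-3p had 112, 83.3, and 130.1 CPM against 106, 138, and 145 CPM, so the groups overlapped, and its log2 fold change was 0.27 (standard error 0.21). It was 0.11 without control library 2 and 0.42 without control library 3.

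**Figure D3:**
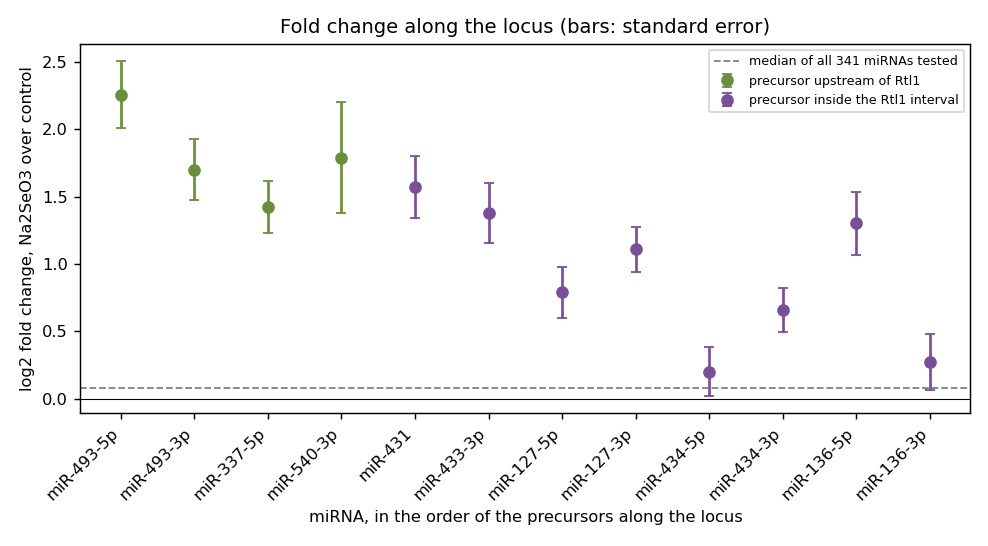
Log2 fold change (Na2SeO3 over control, edgeR, TMM scaling) of the 12 compared members in the order of the precursors, with bars of 1 standard error, green for precursors ahead of Rtl1, purple for those inside its interval, and a dashed line at the median of all 341 miRNAs compared, 0.08. Values run from 2.26 for miR-493-5p to 0.20 for miR-434-5p, and all 12 lie above the dashed line.

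Each precursor gives a 5p and a 3p arm, of which often a single one is retained. The reads of both arms also depend on how well each end is ligated, so the ratio within a library is not that of the molecules. The ratio of arms does not depend on how libraries are scaled. It is described here for the 4 precursors whose arms each averaged at least 10 reads, with no test, since it compares the same groups as the results that chose the region. For miR-136 the 5p arm made up 32.1%, 28.1%, and 32.6% of both arms' reads in the control libraries and 54.9%, 45.7%, and 45.2% in the Na2SeO3 libraries. The control libraries therefore held about 2 reads of the 3p arm for each of the 5p arm, and the Na2SeO3 libraries nearly equal numbers. The widest 95% exact binomial interval among these shares was that of Na2SeO3 library 1, 46.9% to 62.8% of 162 reads. On the log2 scale the 5p to 3p ratio differed by 1.08 between groups, from -1.16 ± 0.17 to -0.08 ± 0.32 (SD, n = 3 each). The difference was the 3rd largest in size among 72 rat precursors with both arms counted this well, whose median size was 0.31.

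For miR-493 the 5p share was 31.0%, 32.8%, and 32.6% in the control libraries and 34.4%, 42.1%, and 46.4% in the Na2SeO3 libraries. The ratio was higher in all 3 Na2SeO3 libraries, by 0.54 on the log2 scale, but the interval of Na2SeO3 library 1, 28.0% to 41.3%, covered all 3 control shares. The arms of miR-127 were the most unequal, with the 5p arm at 2.32% ± 0.43 of both arms' reads in the control and 1.87% ± 0.43 in the Na2SeO3 group (SD, n = 3 each), and the groups overlapped. For miR-434 the 5p arm held 63.2% ± 7.87 and 56.1% ± 4.17 (SD, n = 3 each), with overlap. Its spread in the control group came from library 3, at 72.1% against 60.3% and 57.3%. The arm ratio separated the groups in 2 of these 4 precursors, miR-136 and miR-493, both with the Na2SeO3 libraries above. It did so in 16.7% of all 72, with the Na2SeO3 libraries above in 10 and the control libraries above in 2, miR-181c and miR-98. Those 10 also include miR-379 (0.87), miR-376b (0.72), and miR-369 (0.67) of the cluster from miR-379 to miR-410. Other precursors of that cluster overlapped, among them miR-329 at -0.72.

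**Figure D4:**
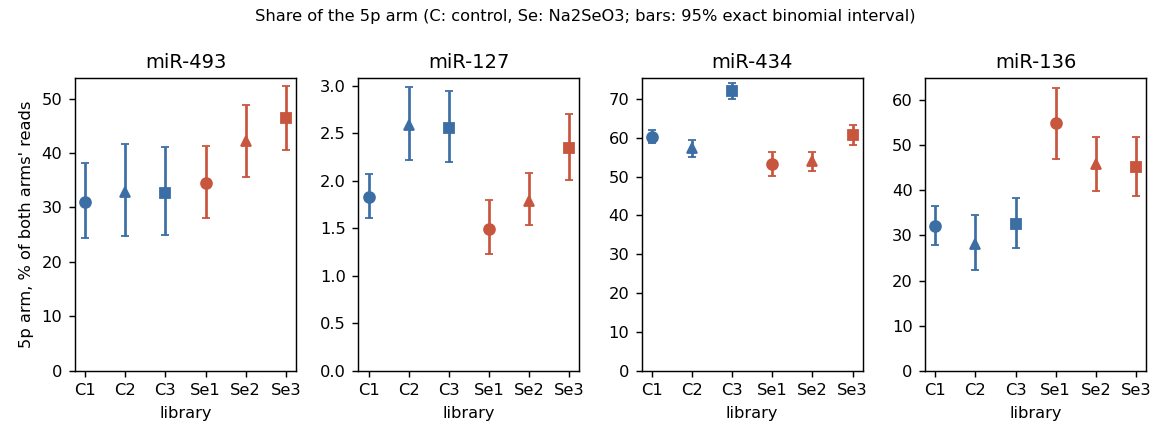
Share of the 5p arm among the reads of both arms (%, axis from 0) for miR-493, miR-127, miR-434, and miR-136 in control libraries (C1 to C3, blue) and Na2SeO3 libraries (Se1 to Se3, red), with 95% exact binomial intervals that cover counting error only. For miR-136 the control libraries lie between 28.1% and 32.6% and the Na2SeO3 libraries between 45.2% and 54.9%.

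Within the groups the members did not peak in the same library throughout. Control library 3 was the highest of its group in 7 of the 12 compared members, and Na2SeO3 library 3 in 6. The median deviation of the members from their group mean was 0.27 on the log2 CPM scale in control library 3 and lay between -0.13 and 0.10 in the other 5 libraries.

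The neighbouring cluster from miR-379 to miR-410 lies next along the region and was set beside the members. Of its 69 listed names, 38 were compared, 37 of these had a positive log2 fold change, 13 were called higher, and 0 were called lower, with a median of 0.85. Over all 341 miRNAs compared, 187 had a positive log2 fold change and 11.4% were called higher. Reads of the members per read of that cluster were 1.66, 1.28, and 1.57 in the control libraries and 1.80, 1.72, and 1.59 in the Na2SeO3 libraries. These ratios overlapped, and most of the member reads in them were miR-127-3p. Without it the ratios were 0.382 to 0.462 and 0.354 to 0.403, again overlapping. For the 9 rows ahead of Rtl1 the ratios were 0.0353, 0.0378, and 0.0388 in the control libraries and 0.0642, 0.0657, and 0.0743 in the Na2SeO3 libraries, so every Na2SeO3 library lay above. For the 9 rows inside the interval they were 1.62, 1.24, and 1.54 against 1.74, 1.65, and 1.51, which overlapped. Without miR-127-3p the inside rows gave 0.392, 0.344, and 0.423 against 0.289, 0.338, and 0.321, so every control library lay above, and most of these reads were the arms of miR-434, whose log2 fold changes were among the smallest. All are descriptions of the comparison that chose the region, with no test.

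Outside the members, the miRNAs whose log2 CPM followed the mean of the 12 members most closely over the 6 libraries were rno-miR-351-5p (Pearson r = 0.992), tca-miR-3876-5p (0.986), rno-miR-409a-5p (0.982), rno-miR-370-3p (0.974), and rno-miR-411-5p (0.969). These values describe 6 libraries that fall into 2 groups, so a miRNA that is higher in the Na2SeO3 group tends to score high. Of the 5, miR-409a-5p, miR-370-3p, and miR-411-5p are Dlk1-Dio3 miRNAs. rno-miR-351-5p, from an X-linked cluster, had 40.8 CPM on average in the control and 101 CPM in the Na2SeO3 group. The name tca-miR-3876-5p belongs to another species and had 0 counts in each control library and 14, 39, and 43 in the Na2SeO3 libraries.

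Summed markers of some other cell types also differed between the groups, and their part in the members' differences was not tested. The striated muscle miRNAs summed to 17659.7 to 22451 CPM in the control and 26985 to 31641 CPM in the Na2SeO3 libraries, without overlap, with 11 of the 16 listed names counted. Those at 0 in all libraries were miR-1-5p, miR-133b-5p, miR-133c, miR-208a-5p, and miR-208b-5p, while miR-1-3p, miR-133a-3p, and miR-206-3p were abundant. Of the 7 muscle names compared, 4 passed the adjusted p-value alone as higher and 0 as lower, against 20.8% of all miRNAs as higher. These 4 were miR-206-3p (log2 fold change 1.75), miR-133b-3p (0.98), miR-1-3p (0.69), and miR-133a-3p (0.68). rno-miR-499-5p went the other way, with every control library above every Na2SeO3 library (647 to 876 against 399 to 639 CPM), and rno-miR-1b had a log2 fold change of 0.24. The glial miRNAs (6 of 6 listed names counted) summed to 69.2 to 79.1 CPM and 138 to 152 CPM, with most of the difference in rno-miR-219a-2-3p, which had 5 to 13 reads in control and 59 to 81 in Na2SeO3 libraries. The other compared glial names were rno-miR-338-3p, with a log2 fold change of -0.93 and every control library above every Na2SeO3 library, and rno-miR-338-5p, at 0.25, and neither passed. The names miR-219a-5p and miR-219b had at most 1 read in any library. The red blood cell miRNAs (4 of 5 counted, miR-451-3p at 0) summed to 254 to 306 and 404 to 518 CPM, and the difference lay in rno-miR-486 (log2 fold change 1.12). rno-miR-451-5p, the main red blood cell miRNA, had 117 to 140 CPM in the control and 114 to 163 CPM in the Na2SeO3 libraries, with a log2 fold change of 0.06, and miR-144-5p did not pass. The neural miRNAs, of which all 17 listed names were counted, summed to 35920.5 to 43170.4 CPM and 41204 to 51522 CPM, which overlapped. As a share of the counts they took 3.65% to 3.69% and 4.69% to 5.34%, without overlap. Most of this sum was rno-miR-9a-5p, at 24301 to 32170 CPM in the control and 30956.5 to 42507 CPM in the Na2SeO3 libraries, with a log2 fold change of 0.43. Of the 9 neural names compared, miR-9a-5p passed the adjusted p-value alone as higher and 3 as lower, against 71 and 47 of all 341. Among those lower were miR-129-1-3p and miR-129-2-3p, which hold identical counts. rno-miR-124-3p, specific to neurons, had a log2 fold change of -0.12 (standard error 0.20). The leukocyte miRNAs (8 of 8 counted) overlapped, at 159 to 198 and 132 to 188 CPM.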

How the data were processed

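Per the study's methods, reads were trimmed with Cutadapt and Fqtrim, checked with FastQC, and compared with an Ensembl reference genome using miRDeep and HISAT2. The genome build and versions are not given in the sources used here. The authors deposited read counts per miRNA name for 6 libraries, neither normalized nor pooled, and no column was left unused. How reads that match several names were shared out is not stated. Nothing says whether the libraries differ in technical handling.

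Of 910 names, filterByExpr (minimum count 10) kept 341. TMM scaling preceded the quasi-likelihood test of edgeR, with group as the single factor and p-values adjusted by Benjamini-Hochberg over all 341. Standard errors were the log2 fold change divided by the root of its F statistic. A prior count of 2 entered log2 CPM, and a pseudocount of 0.5 the log2 ratio of 5p to 3p reads. The permutation test first planned for that ratio is not printed, because it uses the contrast that chose the region. Chi-square per degree of freedom between any 2 libraries was at least 27.9, so none was counted as a copy. The fit was tested on simulated data. The members and lists were chosen with earlier results of these data known. All compared members are named, as are the 5 miRNAs most like them in pattern. Tools were R 4.3.3, edgeR 4.0.16, DESeq2 1.42.0, scipy 1.17.1, and matplotlib 3.10.9. Alternatives were other scalings, filters, DESeq2, a replicate block, and leaving out each library.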

Additional observations from a re-analysis of the deposited data

How the results depend on the processing

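The 8 members called stayed the same 8 with library size only, upper-quartile scaling, RLE size factors, DESeq2, no filter, and the replicate block. When each library had to hold 10 counts, rno-miR-540-3p could not be compared, and 7 were called. Leaving out each library gave 7 or 8, with rno-miR-127-3p lost without control library 2 or Na2SeO3 library 1. The median log2 fold change of the compared members was 1.54 with library size only and between 1.23 and 1.36 with each library left out, against 1.34. Every member kept a positive log2 fold change under all 13 alternatives in which it was compared. The direction of the 4 arm ratios held with a pseudocount of 2 and with each library left out, but not the size for all. The log2 difference of miR-434, -0.45, was -0.16 without control library 3. That of miR-127, -0.32, was -0.17 without Na2SeO3 library 1, -0.49 without control library 1, and -0.50 without Na2SeO3 library 3. For miR-493 the difference, 0.54, was 0.38 without Na2SeO3 library 3 and 0.74 without Na2SeO3 library 1. Over all miRNAs, 118 passed the adjusted p-value alone, against 56 with the fold change threshold, and 45 to 62 were called with each library left out. Deviations from the group means correlated at -0.17, -0.18, and -0.26 between libraries with the same number, and no source says that a number marks a pair, so these libraries share only a number. With the replicate block 49 miRNAs were called, and the members' median was 1.35. No name of another species carried a member's number. The number of counted reads limits the 6 rows with few reads and rno-miR-540-3p.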

Other observations

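The Dlk1-Dio3 miRNAs on either side of the members were compared in the same fit. rno-miR-770-3p, whose precursor comes just before Mir673, was counted 42, 15, and 19 times in control libraries 1 to 3 and 21, 32, and 43 times in Na2SeO3 libraries 1 to 3. That corresponds to 11.5 ± 3.44 and 35.6 ± 10.1 CPM (SD, n = 3 each), without overlap, and a log2 fold change of 1.61 (standard error 0.31). Beyond Mir136, rno-miR-341 had 161.3, 122.6, and 169.5 CPM in control libraries 1 to 3 and 170.4, 315.9, and 315.7 CPM in Na2SeO3 libraries 1 to 3, and its log2 fold change was 0.83 (standard error 0.23). Na2SeO3 library 1 lay within 1 CPM of control library 3, far below the other Na2SeO3 libraries. Further on, rno-miR-370-3p had 94.7 ± 8.90 and 146 ± 3.58 CPM (SD, n = 3 each), without overlap, and a log2 fold change of 0.63 (standard error 0.17).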
